A study of Mus musculus with 4 samples.

Results

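The AP-1 family examined here was 8 genes, Fos, Fosb, Fosl1, Fosl2, Jun, Junb, Jund and Atf3, chosen by name and found in both deposited gene tables, of 19040 genes that the frontal cortex and midbrain tables shared. AP-1 is a dimeric transcription factor whose subunits are joined through a leucine zipper: Fos proteins pair with Jun proteins, Jun proteins also pair with each other, and Atf3, a stress-induced relative, pairs with Jun proteins. Most of these genes are immediate early genes, transcribed within minutes of growth factors, calcium entry, cytokines or tissue damage with no need for new protein. Enzymatic dissociation of fresh brain is itself known to induce them, above all in microglia, and the cells measured here had been dissociated.

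The cells came from the frontal cortex and midbrain of Hua-Syn(A53T) transgenic mice and of wildtype C57BL/6 littermates, all aged 6 to 9 months, and were isolated with an enzyme kit for glial and vascular cells. The promoter that drives the transgene is not given in the sources used here. There was 1 library for each region and genotype, made from 3 mice per group according to the design text, although the mouse number label reads 3 for frontal cortex and 0 for midbrain. With 1 library per group no test was possible, no p-value is given, and every difference below compares libraries, with intervals that cover counting error only.

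The libraries held 3775 to 7635 cells and 30712684 to 56588233 UMIs (unique molecular identifiers, 1 per counted RNA molecule). Astrocytes (the deposited label AC) numbered 1067 in wildtype and 868 in transgenic frontal cortex, and 2644 and 1512 in midbrain, with medians of 6320 to 7983 UMIs per cell. Of 10 astrocyte markers, 9 were highest in the cells labelled AC in each region. All 10 microglial and all 10 endothelial markers were highest in the cells labelled MG (microglia) and EC (endothelial cells). The libraries shared 46 cell barcodes in all. Levels are UMIs summed over the cells of a type per 1000000 UMIs of those cells (CPM).

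The genes lie apart in the genome (GRCm38, GENCODE spans covering exons, introns and UTRs together). Fos is at chromosome 12, 85473890 to 85477273, and Fosb at chromosome 7, 19302696 to 19310051. Fosl1 is at chromosome 19, 5447547 to 5455946, and Fosl2 at chromosome 5, 32135801 to 32157842. Jun is at chromosome 4, 95049034 to 95052222, Atf3 at chromosome 1, 191170296 to 191218039, and Jund and Junb share chromosome 8, at 70698949 to 70700616 and 84974484 to 84978718. Genes on the opposite strand overlap 5 of them: Ccdc85b overlaps Fosl1 over 2767 bases, Gm11175 Jund over 919, Junos Jun over 689, Prdx2 Junb over 351 and Gm24748 Atf3 over 108. The strand setting of the counting is not given in the sources used here, so reads of these pairs may be shared.

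Fos, Fosb, Junb and Jun, which had similar profiles across cell types, are shown by the 150 bases before their start, since 3 of them carry the letters TGACG, the core that CREB and ATF factors recognise, close to it. The sequences are from RefSeq on GRCm38.p6, 5′ to 3′ on the gene's strand. Capitals mark TGACG, in Fos also the TATA box letters TATAAA, and in Jun the letters TGACATCA, known as a Jun and Atf2 binding element.
Fos, chr12:85473740-85473889, plus strand: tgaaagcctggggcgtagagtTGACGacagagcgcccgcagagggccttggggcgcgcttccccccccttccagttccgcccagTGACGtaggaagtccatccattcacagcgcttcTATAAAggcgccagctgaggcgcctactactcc
Fosb, chr7:19310046-19310195, minus strand: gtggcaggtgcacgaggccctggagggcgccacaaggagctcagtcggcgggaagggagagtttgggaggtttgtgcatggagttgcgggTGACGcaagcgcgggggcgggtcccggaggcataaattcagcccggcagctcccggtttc
Junb, chr8:84978749-84978898, minus strand: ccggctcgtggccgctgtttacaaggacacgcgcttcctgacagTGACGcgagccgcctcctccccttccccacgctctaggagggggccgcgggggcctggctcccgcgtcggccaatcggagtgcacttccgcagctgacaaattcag
Jun, chr4:95052223-95052372, minus strand: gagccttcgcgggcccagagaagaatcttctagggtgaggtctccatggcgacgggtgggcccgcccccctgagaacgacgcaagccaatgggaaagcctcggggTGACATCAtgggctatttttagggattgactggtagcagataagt
The first base of TGACG lay 129 and 66 bases before the start in Fos, 60 in Fosb and 106 in Junb, and TGACATCA began 45 bases before the start of Jun. A RefSeq promoter was at hand for 7 of the 8 members, Fosl1 not among them. Over the 250 bases before the start, on both strands, TGACG was present in 4 of these 7 and in 17.8% of 32851 mouse promoters. TGACATCA was present in 1 of 7 and in 2.93% of all, and TATAAA in 1 of 7, Fos, and in 12.4% of all. The classical AP-1 site TGACTCA, the full palindrome TGACGTCA and the CArG box of serum response factor were found in none of the 7 windows and in 4.46%, 1.55% and 1.47% of all promoters. These matches describe letters and not bound sites, and bases further than 250 before the start were not searched.

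Astrocytes held the lowest or nearly the lowest level of most members. Fos, the prototype subunit, stood at 183 CPM in wildtype and 107 CPM in transgenic frontal cortex astrocytes and at 140.4 and 80.8 CPM in midbrain. Microglia held 2084 and 3035 CPM of Fos in frontal cortex and 2947 and 4795 CPM in midbrain, and endothelial cells 761 and 649 CPM, and 1540.1 and 1491 CPM. Astrocytes ranked last for Fos among the 10 and the 8 types with at least 50 cells in the frontal cortex libraries, and 12th of 13 and 6th of 7 in the midbrain libraries, where only the cells labelled CPC were lower. In wildtype midbrain the intervals of astrocytes and imNeur cells overlapped, while in the other 3 libraries astrocytes were separated from their neighbours. The top of the Fos order was held by smooth muscle cells in 3 libraries and by macrophages in transgenic frontal cortex.

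Jun, which pairs with every Fos protein, was at 473 and 353 CPM in frontal cortex astrocytes and at 142 and 149.6 CPM in midbrain astrocytes, each pair as wildtype then transgenic. Microglia were the highest type for Jun in all 4 libraries, at 8191, 6336, 8661 and 8884 CPM in the same order, and endothelial cells held 3061, 1813, 3809 and 3366 CPM. Junb, a Jun protein with weaker activating capacity, was at 149 and 105 CPM in frontal cortex astrocytes and at 90.0 and 66.2 CPM in midbrain, against 2836 to 4200.1 CPM in microglia. Jund, the most constitutively expressed Jun gene, was at 301 and 204 CPM and at 176 and 172 CPM in astrocytes, against 2768 to 3255 CPM in microglia. Astrocytes ranked last for Jund in all 4 libraries.

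Atf3, a marker of injured and stressed cells, was at 63.8 and 25.4 CPM in frontal cortex astrocytes and at 31.0 and 20.3 CPM in midbrain, against 1929 to 2951 CPM in microglia and 81.2 to 259 CPM in endothelial cells. Fosb, whose spliced form is known for outlasting the other Fos proteins, was at 21.8 and 8.16 CPM in frontal cortex astrocytes and at 11.7 and 13.4 CPM in midbrain, against 449 to 1107 CPM in microglia. Fosl2, a Fos protein without the strong activation domain, stood at 2.19 to 6.59 CPM in astrocytes and was highest in macrophages, smooth muscle cells or the cells labelled MNC. Fosl1, also known as Fra-1 and induced by sustained ERK signalling, had 0 to 7 UMIs in every type and library except transgenic frontal cortex astrocytes, where 36 UMIs gave 5.16 CPM. The cells labelled imNeur followed there with 1 UMI, and the interval of their ratio to astrocytes held equality.

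**Figure D1:**
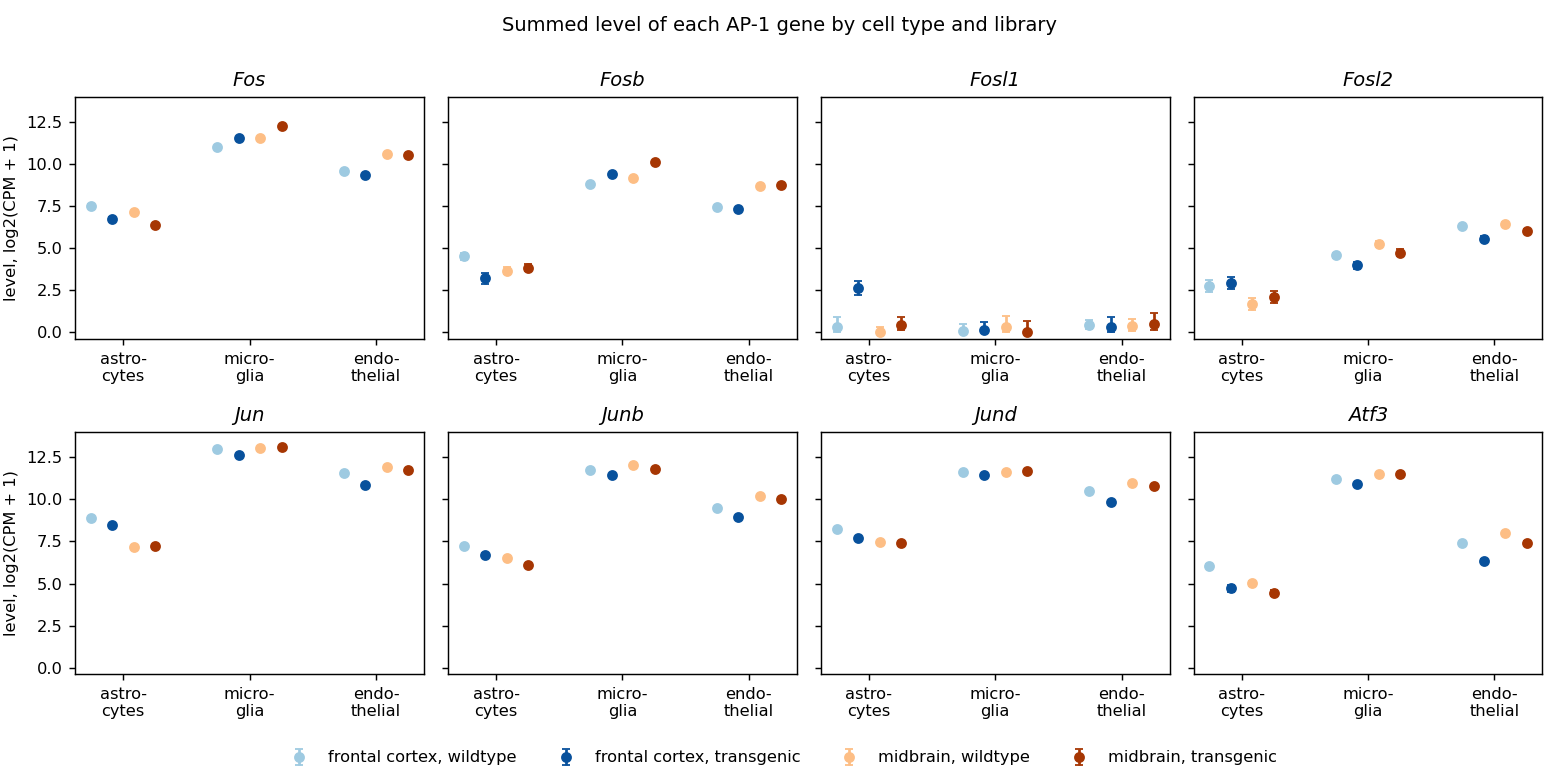
Level of each AP-1 gene as log2(CPM + 1) in astrocytes, microglia and endothelial cells; each point is 1 library and bars are exact 95% Poisson intervals. Astrocyte points lie below both other types for 7 genes, and Fosl1 reaches 5.16 CPM in transgenic frontal cortex astrocytes.

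Members were counted as lower or higher at a ratio of at least 1.5 times, a 95% interval that leaves out equality and at least 20 CPM in 1 of the cell groups compared. Against microglia, 7, 6, 7 and 7 of the 8 members were lower in astrocytes of wildtype and transgenic frontal cortex and wildtype and transgenic midbrain, where 33.9%, 31.4%, 31.8% and 31.7% of all genes tested were lower and 32.1%, 34.1%, 35% and 36.2% higher. The median log2 ratio of the members at 20 CPM ran from -5.89 to -4.11. Against endothelial cells 7 of 8 were lower in each library, with 36.8%, 35.6%, 36.1% and 35.6% of all genes lower and 28.5%, 28.2%, 29.6% and 30.3% higher, and medians from -4.21 to -2.25. Fosl1 was the member not counted, and Fosl2 in transgenic frontal cortex against microglia, where both types were under 20 CPM. No member was counted as higher. These directions had been known when the genes were chosen and are a description.

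The share of cells with a UMI gave the same order after each cell was thinned to 3000 UMIs. A Jun UMI was then present in 53.3% (95% exact interval 49.9 to 56.7) of wildtype and 50.1% (46.1 to 54.0) of transgenic frontal cortex astrocytes, and in 30.8% and 28.8% of midbrain astrocytes. Unthinned, these shares were 76.4%, 70.6%, 51.8% and 55.5%. Microglia had a Jun UMI in 94.7% to 98.7% of thinned cells and endothelial cells in 84.2% to 97.8%. Fos was present in 25.6% (22.7 to 28.7) and 19.4% (16.4 to 22.7) of thinned frontal cortex astrocytes, and in 25.3% (23.5 to 27.2) and 17.2% (15.1 to 19.5) of midbrain astrocytes. Thinning left out 200 and 233 shallower astrocytes in frontal cortex and 435 and 311 in midbrain.

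A Fos UMI was found in a larger share of the cells that had a Jun UMI than of those that had none, in microglia and in astrocytes of each library. Among thinned wildtype frontal cortex microglia 77.2% of the cells with a Jun UMI had a Fos UMI, against 3 of the 23 cells without one. Among astrocytes of that library the share was 30.5% (26.3 to 34.9) with a Jun UMI, against 81 of 405 cells without one (16.2 to 24.2%). In transgenic frontal cortex astrocytes they were 26.1% and 12.6%, and in midbrain astrocytes 28.0% and 24.1% in wildtype and 19.4% and 16.4% in transgenic. The intervals of the cells with and without Jun overlapped in both midbrain libraries. The 10 wildtype astrocytes richest in Jun held 28.5% of all microglial marker UMIs in frontal cortex astrocytes and 0.410% in midbrain astrocytes. Microglial RNA brings both genes into a cell, and its part in these shares was not tested.

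RNA of microglia and endothelial cells was counted in the cells labelled astrocytes, and its amount differed between the libraries. The 10 microglial markers summed to 1146 CPM in wildtype and 576 CPM in transgenic frontal cortex astrocytes and to 267 and 293 CPM in midbrain. The 10 endothelial markers summed to 664, 269, 205 and 152 CPM, and none of these 20 markers was at 0 in any library. Microglial markers therefore give a background for the shares above: C1qa, at 6468 to 7979 CPM in microglia, had a UMI in 8.56% to 15.6% of thinned astrocytes, and C1qb, at 6440.5 to 7671 CPM, in 9.24% to 17.5%. Jun, at 6336 to 8884 CPM in microglia, was found in a larger share of astrocytes than either in every library. The share with Fos was also above both. In transgenic frontal cortex, however, the 17.5% of C1qb lay inside the interval of Fos (16.4 to 22.7%), so Fos was not separated from C1qb there. In microglia of that library C1qb was at 7671 CPM and Fos at 3035 CPM. The markers nearest to Fos in that level were Csf1r, P2ry12 and Trem2, at 2655, 2358 and 2343 CPM. They had a UMI in 6.46%, 8.35% and 6.46% of thinned astrocytes there, each below the interval of Fos.

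Expressed as a share of the microglial level, each microglial marker was at 2.28% to 2.82% in wildtype and 0.911% to 1.47% in transgenic frontal cortex astrocytes, and at 0.428% to 1.14% and 0.419% to 1.10% in midbrain. Atf3 lay inside the marker range in all 4 libraries, at 2.71%, 1.31%, 1.06% and 0.688%. Fos was above it, at 8.79%, 3.53%, 4.76% and 1.69%, as was Jun, at 5.78%, 5.58%, 1.64% and 1.68%. Junb at 1.84% to 4.43%, Jund at 5.27% to 9.40% and Fosl2 at 5.90% to 44.3% were also above the highest marker of their library. Fosb was above it in 3 libraries but not in transgenic frontal cortex, where it stood at 1.20%. Against endothelial cells all 7 members other than Fosl1 exceeded the highest endothelial marker in every library. The microglial RNA in these astrocytes also holds the members, so this comparison does not show their source. At the median share of the microglial markers, the microglial part of Atf3 in wildtype frontal cortex was 57.7 of 63.8 CPM. That of Fosb in transgenic frontal cortex was 8.13 of 8.16 CPM.

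**Figure D2:**
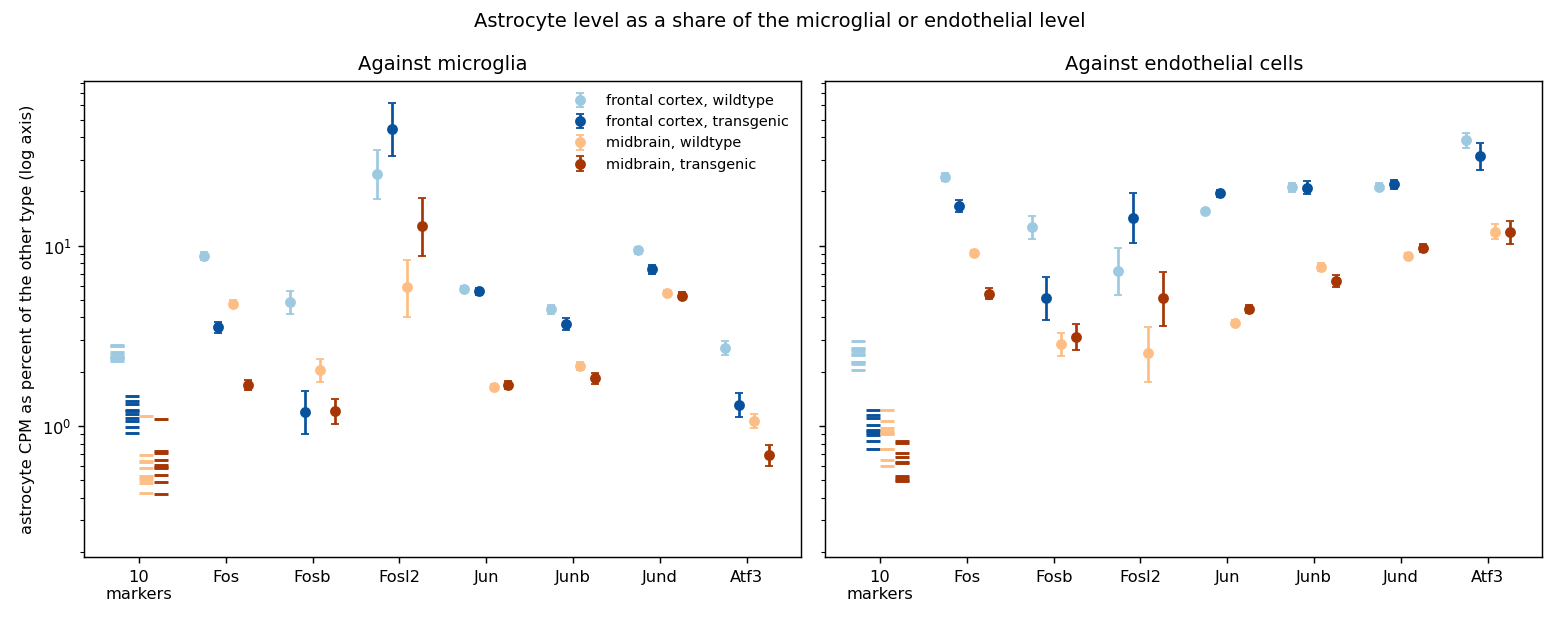
Astrocyte level as a percentage of the microglial (left) and endothelial (right) level on a log axis, with 95% exact intervals; dashes are the 10 marker genes of that type, colours are libraries. On the left Atf3 lies within the dashes of its own library while Jund, at 5.27% to 9.40%, lies above them.

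In frontal cortex the transgenic astrocyte library was lower than the wildtype one for 3 members, where 2.96% of 7120 genes tested were lower, and higher for 0, where 3.6% were higher. Fos was lower by a log2 ratio of -0.77 (95% interval -0.90 to -0.65). Fosb was lower by -1.42 (-1.87 to -0.98), from 185 to 57 UMIs, and Atf3 by -1.33 (-1.58 to -1.08). Jun at -0.42, Junb at -0.52 and Jund at -0.56 had intervals below 0 and missed the 1.5-fold size. Fosl2 was at 0.19 (-0.42 to 0.80). Over the 6 members at 20 CPM the median was -0.67, beside 0.01 for all genes.

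These frontal cortex differences stood beside the microglial and endothelial markers, both of which were also lower in transgenic astrocytes, and beside a median mitochondrial share of 9.68% of UMIs per transgenic astrocyte against 5.27%. The 5 erythroid markers moved the other way, at 20.1 CPM in wildtype and 314 CPM in transgenic. In the wildtype library the 10 astrocytes richest in Atf3 held 48.0% of all Atf3 UMIs and 32.7% of all microglial marker UMIs, but 1.88% of all astrocyte UMIs. The 10 richest in Fosb held 55.7% of Fosb UMIs and 21.0% of the microglial marker UMIs. In the transgenic library the 10 cells richest in Atf3 held 16.4% of Atf3 and 5.55% of the microglial marker UMIs. Doublets were not called. Among astrocytes under 5% mitochondrial UMIs 4 members were lower, namely Fosb, Jun, Jund and Atf3, while Fos at -0.39 was no longer counted, and the part of the erythroid RNA was not tested.

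When only astrocytes with under 4 UMIs of microglial, macrophage, endothelial, pericyte and smooth muscle markers were summed (290 wildtype and 236 transgenic cells, a choice made after the data were seen), 0 members were lower and 1, Jun at 0.64, was higher. Fos was then at -0.22, Fosb at -0.13 and Atf3 at -0.08. This cut also selected shallower cells, with medians of 3616.5 and 2634 UMIs against 7983 and 6638.5 for all astrocytes of these libraries. The part of depth in these shifts was not tested. A subtraction, also chosen after the data were seen, took from each astrocyte level the microglial and endothelial levels times the median share of their markers. It left Fos at 113 CPM in wildtype and 64.8 CPM in transgenic and Jun at 196 and 261 CPM. It left Atf3 at 1.95 and 1.56 CPM and Fosb at 6.48 and -1.46 CPM. With the highest marker share in place of the median, Atf3 was at -7.37 and -4.08 CPM and Fos at 102 and 54.4 CPM. With the mean of per-cell CPM, or with astrocyte clusters weighted alike, 1 member was lower. The subtraction left Junb at 49.0 and 66.0 CPM. Fos was thus lower in transgenic frontal cortex astrocytes under that subtraction, while Jun and Junb changed their direction.

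**Figure D3:**
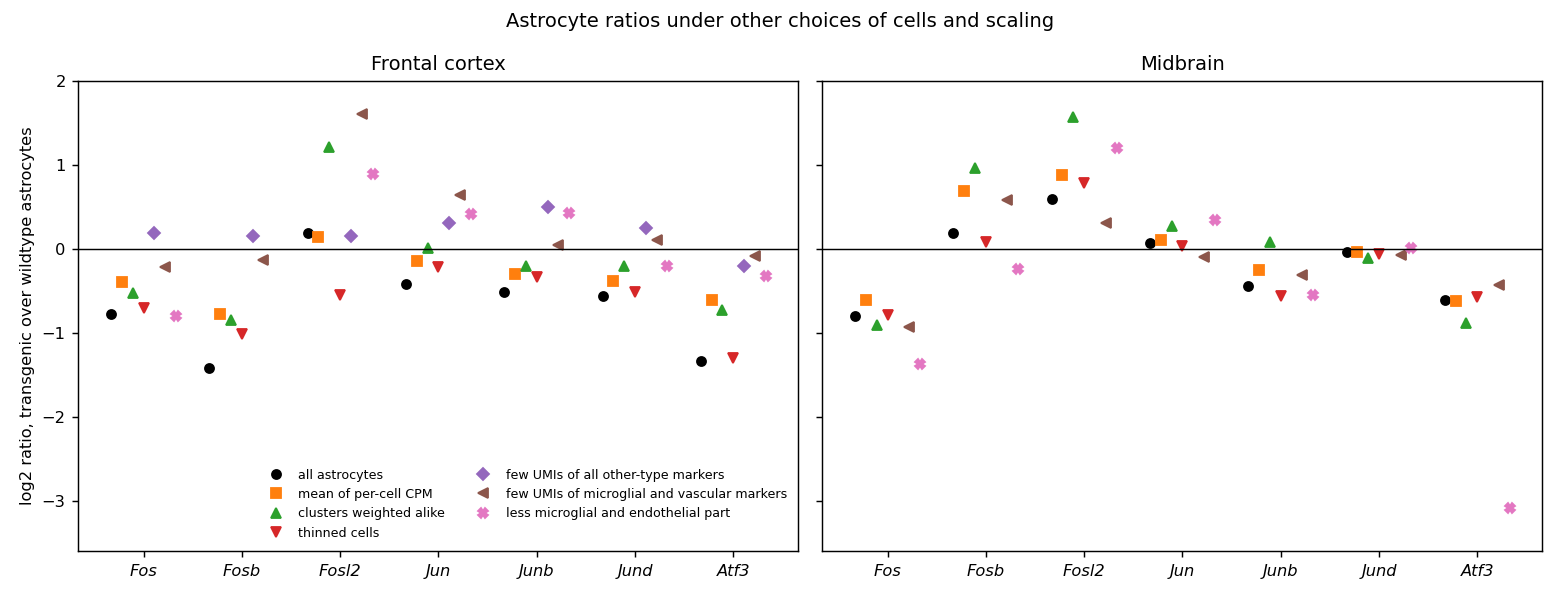
Log2 ratio of transgenic to wildtype astrocytes for the AP-1 genes under different choices of cells and scaling, in frontal cortex and midbrain. Fos in midbrain lies between -1.37 and -0.61 under every choice shown, while in frontal cortex it lies at -0.22 and 0.19 in the cells with few UMIs of other types and at -0.80 after the subtraction.

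In midbrain 2 members were lower in transgenic astrocytes, where 0.594% of 7075 genes tested were lower, and 0 were higher, where 0.806% were higher. Fos was lower by -0.80 (-0.91 to -0.69) and Atf3 by -0.61 (-0.84 to -0.39). Jun was at 0.07 (-0.02 to 0.16), Jund at -0.04 (-0.12 to 0.05) and Junb at -0.44 (-0.57 to -0.32), each closer to 0 than Fos. In thinned cells 1 of the 2 calls was left, with Fos at -0.79 and Atf3 at -0.57. Markers of other types in these astrocytes differed in both directions. The microglial markers were at 267 CPM in wildtype and 293 CPM in transgenic, and the erythroid ones at 47.0 and 260.5 CPM. Lower in transgenic were the endothelial markers, at 205 and 152 CPM, the smooth muscle markers, at 91.8 and 63.1 CPM, and the choroid plexus markers, at 3569 and 1997 CPM. Midbrain smooth muscle cells held 5448 and 4841 CPM of Fos, and the cells labelled CPC 68.4 and 49.4 CPM. The part of smooth muscle, choroid plexus and erythroid RNA in the result was not tested. In astrocytes with few microglial and vascular UMIs (1285 wildtype and 662 transgenic, medians of 5445 and 4988 UMIs per cell), Fos was at -0.93. After the subtraction it was left at 110 CPM in wildtype and 42.6 CPM in transgenic, a log2 ratio of -1.37. Atf3 was left at 12.4 and 1.45 CPM, but with the highest marker share in place of the median both were below 0, while Fos was then left at 87.7 and 15.9 CPM.

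Microglia and endothelial cells of the same libraries showed other patterns. In transgenic frontal cortex microglia 1 member was higher, where 1.26% of genes tested were higher, and 1 was lower, where 0.974% were lower. These were Fosb at 0.60 (0.55 to 0.65) and Fosl2 at -0.63, and Fos was at 0.54 (0.52 to 0.57), just under the size. In midbrain microglia Fos at 0.70 (0.68 to 0.73) and Fosb at 0.94 were higher, where 0.954% were higher, and 0 members were lower, where 2.47% were lower. Jun was at -0.37 in frontal cortex and 0.04 in midbrain microglia. With all astrocytes summed, Fos therefore stood on opposite sides in astrocytes and microglia in both regions. Whether the difference between the types exceeds the spread between mice was not tested.

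In transgenic frontal cortex endothelial cells 4 members were lower, where 1.03% of genes tested were lower and 1.09% higher: Fosl2 at -0.79, Jun at -0.76, Jund at -0.60 and Atf3 at -1.04. Fos was at -0.23 there. In midbrain endothelial cells 1 was lower, Atf3 at -0.60, where 0.943% were lower and 0.929% higher. Pericytes of transgenic frontal cortex had 6 members lower, where 4.65% were lower and 3.53% higher, with Jun at -1.65 and Fos at -0.90, but 0 in midbrain, where 3.87% were lower and 2.51% higher. The cells labelled mNeur in transgenic frontal cortex, where 6 of 8 neuron markers were highest, had Jun at 0.61 and Atf3 at 2.67 (1.72 to 3.79, from 10 to 79 UMIs), where 6.72% were higher, and Fosb at -0.59, where 5.03% were lower. Those labelled imNeur had 2 members lower, Junb and Atf3, where 3.43% were lower and 4.18% higher.

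Smooth muscle cells, which held the most Fos in 3 libraries, had 2 members lower in transgenic frontal cortex, Fosl2 and Atf3, where 4.18% of genes tested were lower and 3.45% higher. In midbrain they had 0, where 2.66% were lower and 1.74% higher. Macrophages had 0 members lower or higher in either region, where 5.36% and 5.86% of genes were lower and 3.07% and 4.71% higher in frontal cortex and midbrain. The midbrain cells labelled CPC had Jun and Junb lower, where 3.85% were lower and 1.41% higher. The Fos difference of astrocytes was thus called in pericytes of frontal cortex as well, and in none of the other types compared here was Fos called lower. Fos had an interval below 0 but missed the size in frontal cortex endothelial cells (-0.23), smooth muscle cells (-0.20) and imNeur cells (-0.35). The same held in midbrain for CPC cells (-0.47), macrophages (-0.32), smooth muscle cells (-0.17) and endothelial cells (-0.05). Fos was above 0 in microglia of both regions, frontal cortex macrophages (0.14) and midbrain pericytes (0.56). In frontal cortex mNeur cells it was at -0.25, within counting error of equality.

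**Figure D4:**
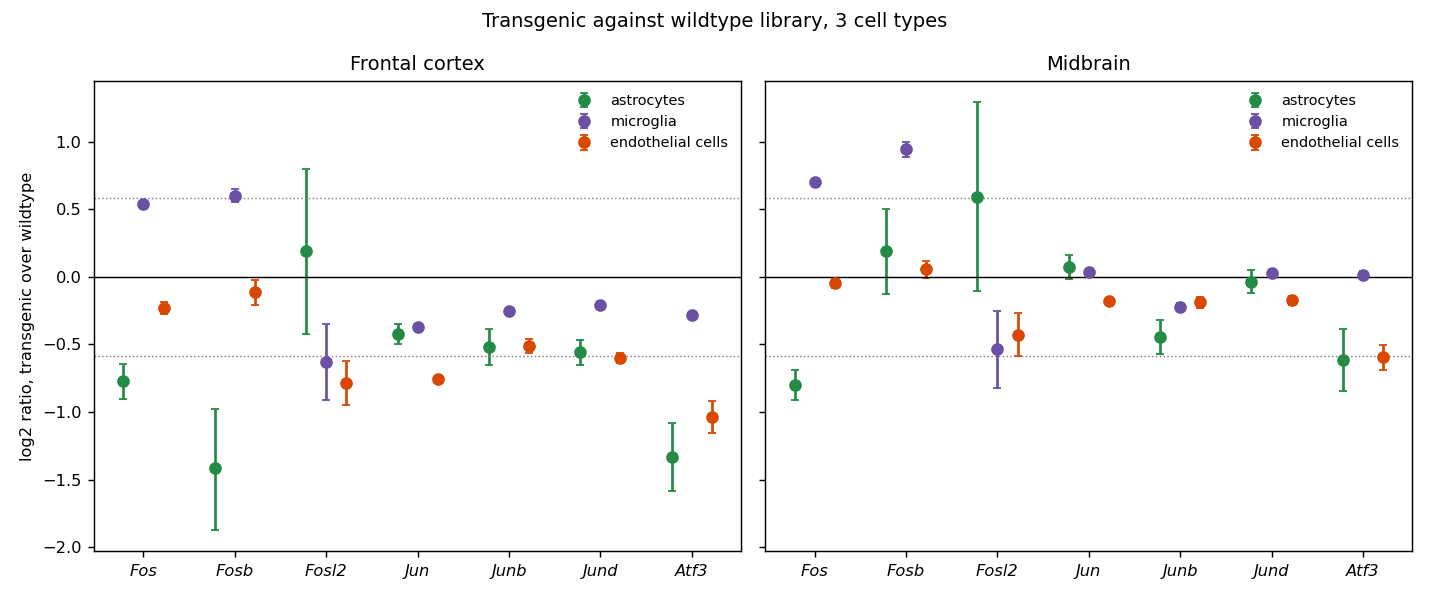
Log2 ratio of transgenic to wildtype library for 7 AP-1 genes in astrocytes, microglia and endothelial cells, with exact 95% counting intervals; dotted lines mark 1.5 times. Fos lies below 0 in astrocytes (-0.77 and -0.80) and above 0 in microglia (0.54 and 0.70) of both regions.

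Within the deposited astrocyte clusters the Fos ratio of transgenic to wildtype was below 0 in 6 of 6 midbrain clusters, each with an interval below 0, and 3 of these reached the 1.5-fold size. In frontal cortex 2 of 4 clusters were counted as lower, and clusters 22 at -0.16 (-0.89 to 0.57) and 4 lay within counting error of equality. In midbrain the log2 ratio ran from -0.33 in cluster 10 to -1.95 in cluster 4, where Fos was at 467 CPM in wildtype and 121 CPM in transgenic. Cluster 4 was shallow, with medians of 1343 and 1315 UMIs per cell. Its 290 wildtype Fos UMIs lay in 80 of 319 cells and its 48 transgenic ones in 42 of 233. The shares of cells with a Fos UMI thus differed less, at 25.1% and 18.0%, and the interval does not cover the spread between cells. Jun in midbrain lay within counting error of equality in 5 of the 6 clusters and was higher in cluster 10, at 182 CPM in wildtype and 296 CPM in transgenic. In frontal cortex cluster 4, the shallow cluster that went the other way, Fos was at 132 and 157 CPM (0.25, -0.18 to 0.68), and microglial markers were at 608 and 824 CPM there.

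Frontal cortex cluster 1, with 781 wildtype and 390 transgenic cells, had 6 of the 8 members lower in transgenic, where 2.11% of the genes tested in that cluster were lower. Fos was at 187 CPM in wildtype and 85.1 CPM in transgenic (-1.13), Jun at 511 and 291 CPM (-0.81) and Atf3 was lower by -1.50. Its microglial markers stood at 1299 and 710 CPM. Cluster 11, with medians of 16010 and 17601 UMIs per cell, had little such RNA, 178 and 229 CPM of microglial markers. There Fos was at 246 CPM in 34 wildtype cells and 132 CPM in 116 transgenic cells (-0.90, -1.21 to -0.59), but Jun was at 231 and 488 CPM (1.08, 0.81 to 1.36). Of all genes tested in that cluster 5.79% were lower and 10.2% higher. Fos and Jun thus differed in opposite directions between the genotypes within that cluster.

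The Fosl1 UMIs of transgenic frontal cortex lay mainly in the same cluster. All astrocytes of that library had 36 Fosl1 UMIs in 2.65% of cells and wildtype astrocytes had 2 in 0.187%, 5.16 CPM (3.61 to 7.14) against 0.24 CPM (0.029 to 0.85). The level was under 20 CPM, so Fosl1 was not counted among the members that differed. Of the 36 UMIs, 29 came from 16 of the 116 cells of cluster 11 (14.9 CPM), and 1 cell held 6. The 34 wildtype cells of that cluster had 0 Fosl1 UMIs. With 3 UMIs set for that group as its floor, the transgenic level was 2.73 times the floor, a log2 ratio of 1.45. The lower limit of the counting interval of this log2 ratio was 1.06. Fosl2 was also at 0 in those 34 cells and at 11.8 CPM in the transgenic ones. This was 2.16 times the same floor, a log2 ratio of 1.11 with a lower limit of 0.70. Ccdc85b, which overlaps Fosl1 on the other strand, was at 35.1 CPM in wildtype and 52.4 CPM in transgenic frontal cortex astrocytes, and its part in the Fosl1 count was not tested. In midbrain astrocytes Fosl1 had 0 UMIs in wildtype and 4 in transgenic, and endothelial cells and microglia had 0 to 7 per library.

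**Figure D5:**
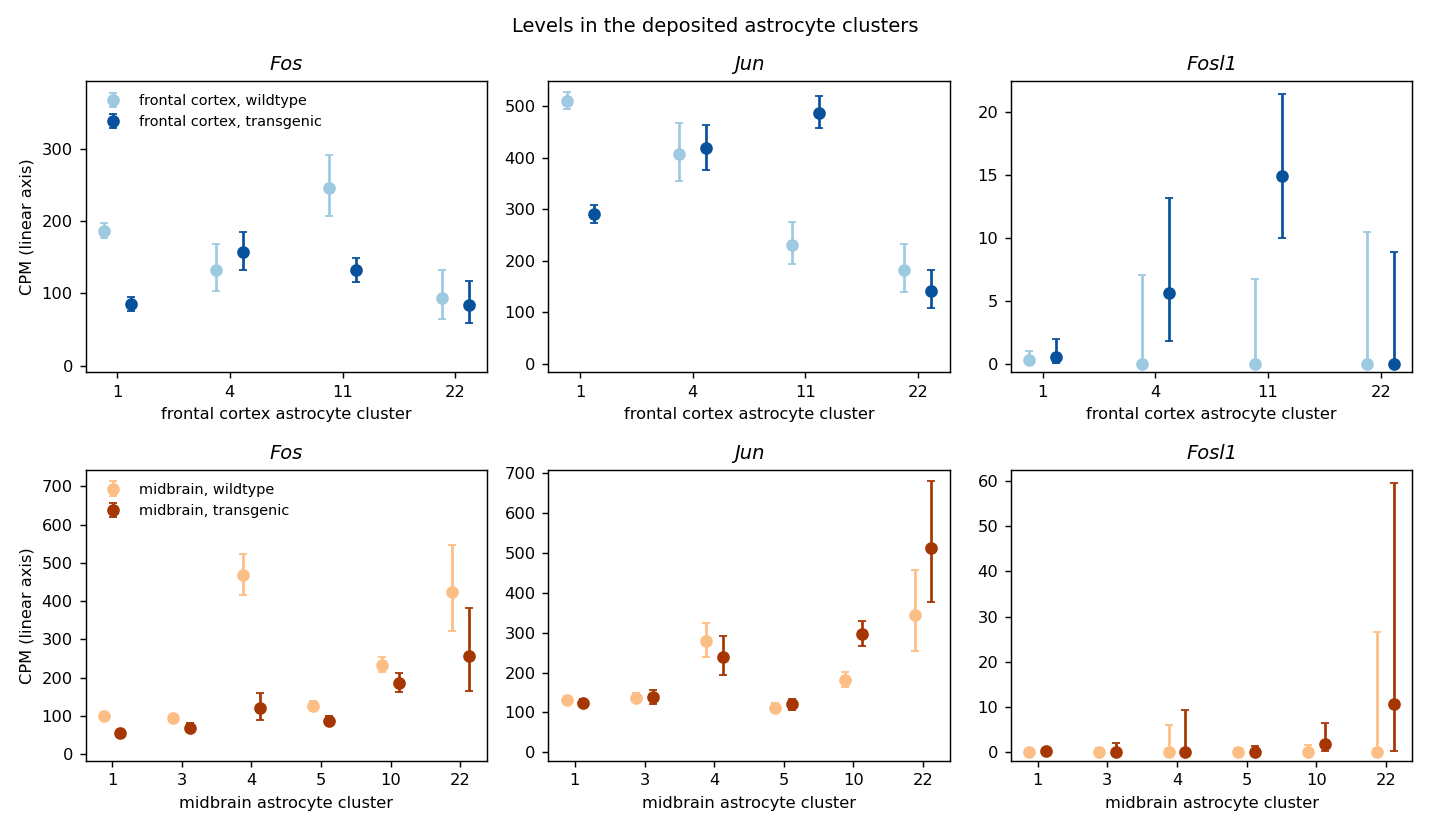
CPM of Fos, Jun and Fosl1 in each deposited astrocyte cluster with at least 30 cells in both libraries, wildtype beside transgenic, with exact 95% Poisson intervals on a linear axis. In frontal cortex cluster 11 Fos is lower (132 against 246 CPM) and Jun higher (488 against 231 CPM) in transgenic, and Fosl1 reaches 14.9 CPM.

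Between regions, midbrain astrocytes were lower than frontal cortex astrocytes for 5 members in wildtype, where 7.06% of genes tested were lower and 6.58% higher, and for 2 in transgenic, where 8.6% were lower and 8.45% higher. Jun differed most among the members at 20 CPM, by -1.73 (-1.81 to -1.66) in wildtype and -1.24 (-1.33 to -1.15) in transgenic. Junb was lower in both genotypes, by -0.73 and -0.66. Fos at -0.38 and -0.41 missed the size in both. The microglial markers were lower in midbrain astrocytes too, 267 against 1146 CPM in wildtype and 293 against 576 CPM in transgenic, and their part in the regional difference was not tested. The regions were separate libraries and separate deposited tables.

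Other genes of the pathway were taken from 5 lists, whose counts stand beside 2.96% of all genes lower and 3.6% higher in transgenic frontal cortex astrocytes, and 0.594% and 0.806% in midbrain. Of 27 other immediate early genes measured, 18 reached 20 CPM in frontal cortex (median -0.58), and 9 were lower and 2 higher. Both higher ones had reached 20 CPM only in the transgenic library. In midbrain 12 reached it, and 3 were lower and 0 higher. This list was also lower in some other types of the same libraries. In frontal cortex 10 of 20 genes at 20 CPM were lower in endothelial cells (1.03% of all genes) and 10 of 18 in pericytes (4.65%). In midbrain 8 of 13 were lower in CPC cells (3.85%) and 10 of 24 in macrophages (5.86%). Frontal cortex microglia had 0 of 20 lower (0.974%) and midbrain pericytes 0 of 17 (3.87%). Rhob, a small GTPase with rapidly induced RNA, was at 218 CPM in wildtype and 142 CPM in transgenic frontal cortex astrocytes (-0.62). Btg1 at -0.30, Gadd45g at 0.12 and Nfkbia at -0.47, also among the list genes richest in astrocyte UMIs, were not counted there. Of 14 feedback inhibitors of the MAP kinases 8 reached 20 CPM in frontal cortex, where 2 were lower and 1, at that level only in the transgenic library, was higher, and 7 in midbrain, where 2 were lower and 0 higher. Of 16 upstream kinases and factors 12 and 10 reached it, 0 were counted either way in either region, and their medians were -0.08 and -0.10. Of 14 other bZIP partners 7 and 6 reached it, with 0 higher and 2 lower in frontal cortex and 0 either way in midbrain. Mafg, at 96.9 and 108 CPM, and Atf7, at 94.8 and 69.3 CPM, were not among those counted.

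Of 13 reported AP-1 target genes measured, 2 were at 20 CPM in wildtype frontal cortex astrocytes, Vim and Ccnd1, and both were higher in transgenic. Cd44 and Timp1, an inhibitor of matrix metalloproteinases named here after its value was seen, had reached 20 CPM only in the transgenic library where they are high, so their calls as higher support nothing. Vim, an intermediate filament gene of reactive astrocytes, was at 80.3 CPM in wildtype and 193 CPM in transgenic (1.27). Cd44, the hyaluronan receptor, was at 3.53 and 58.4 CPM. Ccnd1, which encodes cyclin D1, was at 25.5 and 53.9 CPM (1.08). In midbrain 1 of the 13 was at 20 CPM and 0 were counted either way. The list had been written with earlier results of these libraries known and gives no independent direction.

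Across the 6 types present with at least 50 cells in every library (astrocytes, endothelial cells, macrophages, microglia, pericytes and smooth muscle cells), the members had closely similar profiles over 24 type and library points. The 3 genes most like Fos on log2(CPM + 1), of 10195 compared, were Ppp1r15a, which directs dephosphorylation of eIF2 alpha, with a Pearson r of 0.98, and the members Fosb and Junb at 0.98 each. Junb was nearest to Zfp36 (0.98), which encodes an RNA-destabilising protein, and so was Atf3 (0.97). Jun was nearest to Mcl1, an anti-apoptotic gene, and to Jund (0.97 each). Jund was nearest to Btg2, Ier3 and Ier2 (0.98 each). Fosl2 stood apart from the other members, with r from 0.73 to 0.85 to them, and was nearest to Col14a1 (0.93) and Nr4a1 (0.92). The points share libraries and depth, so these values describe likeness and carry no p.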

How the data were processed

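The values deposited by the authors are raw UMI counts for every gene in every cell, produced with Cell Ranger 3.0.0 and Seurat 3.1.5 on mm10, per the submitters' processing notes. The cell tables deposited by the authors give each cell's mitochondrial percent, Seurat cluster and type, and all were used as given. The share of cells with a UMI of 1 microglial marker is not reported here. No cell was filtered out and no doublet caller was run.

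Counts were summed per type or cluster and library and scaled to CPM. Poisson, binomial and conditional (Clopper-Pearson) 95% intervals were exact. A gene was called at 1.5 times, with an interval without equality and 20 CPM in 1 group. A 0 was set to a floor of 3 UMIs for ratios. Types needed 50 cells and clusters 30. The calls were tried on simulated counts that held counting error only. These counts held no spread between mice or libraries, so they cannot show the error of calls from 1 library per group. The naming rule covered the 8 members, the 4 genes richest in astrocyte UMIs of each other list, and the 3 nearest genes per member. Not all of these genes are named in the text. The members and lists were chosen with earlier results of these data known. Alternatives included edgeR 4.0.16 TMM factors, DESeq2 1.42.0 size factors, thinning and choices of cells. Tables were processed with Python 3.11.15 and R 4.3.3.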

Additional observations from a re-analysis of the deposited data

Results flagged for a closer look

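Fos stood on opposite sides in astrocytes and microglia of the same libraries, in both regions. In frontal cortex the log2 ratio of transgenic to wildtype was -0.77 in astrocytes and 0.54 in microglia, and in midbrain it was -0.80 and 0.70. Fosb did the same in frontal cortex, at -1.42 in astrocytes and 0.60 in microglia. Under the alternatives run, the frontal cortex astrocyte ratio ran from -0.80 to 0.19 for Fos and from -1.43 to 0.15 for Fosb. Fosb of transgenic frontal cortex astrocytes, at 1.20% of the microglial level, also lay within the range of the microglial markers. Jun was on opposite sides in the microglia of the regions, at -0.37 in frontal cortex and 0.04 in midbrain, the second of these a small difference. With 1 library per group none of these differences was tested.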

How the results depend on the processing

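No paired analysis was possible because each region and genotype was 1 library and no replicate was numbered. For the same reason no replicate could be left out. Up to 14 alternatives were run, of which the cut on microglial and vascular UMIs and the subtraction were chosen after the data had been seen. The counts of members lower in astrocytes than in microglia or endothelial cells stayed within 1.5 times under every alternative run on them. In frontal cortex 3 members were lower in transgenic astrocytes. This count became 1 with the mean of per-cell CPM, 1 with clusters weighted alike, 1 after the subtraction of microglial and endothelial RNA, 0 in astrocytes with under 4 UMIs of all other-type markers (172 wildtype and 66 transgenic cells) and 0 in those with few microglial and vascular UMIs. The count of members higher became 1 with no filter on low genes (Fosl1) and 1 in astrocytes with few microglial and vascular UMIs (Jun). In the cells with few other-type UMIs, Fos at 0.19 and Fosb at 0.15 were reversed. That choice left 4 and 7 midbrain cells and was not run there. In midbrain the count of 2 lower became 1 with thinned cells, 1 with few microglial and vascular UMIs, 1 after the subtraction and 0 at 2 times, and the count higher became 1 (Fosb) with the mean of per-cell CPM and 1 with clusters weighted alike. Fos in midbrain ran from -1.37 to -0.61 over 13 alternatives and was below 0 in each. In frontal cortex it ran from -0.80 to 0.19 over 14. Beyond the choices of cells and scaling themselves, the cause of these shifts was not tested. Astrocytes with few microglial and vascular UMIs were also shallower in the median than all astrocytes of their library. Depth limited Fosl1 most, with 0 to 36 UMIs per astrocyte library.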
